A study of Mus musculus with 35 samples.

Results

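Gene expression in the hippocampus of PS19 mice was compared between 9 and 4 months of age, with the genotype held fixed. The comparison rests on the 10 bulk RNA-seq libraries whose titles give the PS19 genotype, of 35 samples in the series: 6 libraries of 4 months and 4 libraries of 9 months (replicates 1, 3, 4 and 5; replicate 2 was not analysed here). PS19 is a transgenic line that expresses a mutant human tau from a prion protein promoter, and the strain is given as C57BL/6. Mice of both ages carry the transgene, so ageing itself and the course of tau disease cannot be told apart within these 10 libraries. The series also holds 11 bulk libraries of wild-type (WT) hippocampus, 6 of 4 months and 5 of 9 months, which gave the age change without the transgene, and single nuclei of 9 months that are not used here. RNA was extracted with an RNeasy kit and made into libraries with a SMARTER mRNA-seq kit, and the values are read counts per gene. Nothing in the labels says that libraries of a group came from separate animals, and p-values therefore measure the spread between these samples. Sex is not given for the bulk samples, and Xist had 0 to 7 counts and the Y-linked gene Ddx3y 68.3 to 90.0 CPM (counts scaled to a common library size) in all 21 bulk libraries.

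Tau is a microtubule-binding protein of neurons that becomes heavily phosphorylated and aggregates in tauopathies. In PS19 mice aggregates appear in hippocampal neurons and are followed by activation of glia, by loss of synapses and by loss of neurons. Microglia, the resident macrophages of the brain, respond to injury and debris through the receptor Trem2 and its adaptor Tyrobp, and astrocytes respond with intermediate filaments such as Gfap. Type I interferon signalling switches on a large family of antiviral genes. Sterol synthesis is controlled by the transcription factor Srebf2, which is held back when cells have enough cholesterol, and lysosomal genes are controlled by Tfeb through a short promoter element.

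The sequences of 4 groups of promoters are shown because these groups moved together between the ages or, for the lysosome, because the members were split. All are stretches of the 250 bases before the start of the gene as RefSeq annotates it, from promoters of build GRCm38.p6, written from 5′ to 3′ on the strand of the gene. Gene coordinates given with the values are those of GENCODE M21, whose starts can differ: the stretches shown for Irgm1, Idi1, Msmo1, Ctsd, Ctsa, Cln3 and Mcoln1 lie inside the GENCODE gene, and those of Ifit1 and Cyp51 run across its start. Capitals mark every match of the motif named for the group on either strand. Interferon-stimulated genes are shown with GAAA followed after any 2 bases by a further GAAA, a core form of the element bound by interferon-activated factors: Ifit1 (chr19:34640769-34640888, plus strand), Isg15 (chr4:156200819-156200908, minus strand), Oas1a (chr5:120907526-120907585, minus strand), Irgm1 (chr11:48871421-48871480, minus strand) and Cxcl10 (chr5:92348890-92349119, minus strand).
Ifit1: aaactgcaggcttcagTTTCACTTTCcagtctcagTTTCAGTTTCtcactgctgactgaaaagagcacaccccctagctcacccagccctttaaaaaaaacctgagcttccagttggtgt
Isg15: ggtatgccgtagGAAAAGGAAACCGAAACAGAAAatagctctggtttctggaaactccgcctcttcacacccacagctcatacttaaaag
Oas1a: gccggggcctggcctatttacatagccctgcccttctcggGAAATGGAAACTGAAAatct
Irgm1: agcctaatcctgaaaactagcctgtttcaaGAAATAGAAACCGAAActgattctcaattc
Cxcl10: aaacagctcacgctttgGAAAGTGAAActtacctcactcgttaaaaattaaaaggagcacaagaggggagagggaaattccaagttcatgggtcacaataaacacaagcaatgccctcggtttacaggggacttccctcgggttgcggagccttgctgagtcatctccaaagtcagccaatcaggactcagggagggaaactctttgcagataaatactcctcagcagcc

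The motif was present in 16 of 30 promoters of tested interferon response genes (53.3%), against 377 of the 12193 promoters available for tested genes (3.09%). The matches of Ifit1 lay 76 and 95 bases before the start, and the match of Cxcl10 lay 204 bases before it. MHC class II promoters are shown with ATTGG, the letters of the CCAAT box, which is bound by the factor NF-Y in class II and in sterol-responsive promoters alike: H2-Aa (chr17:34287824-34287883, minus strand) and H2-Eb1 (chr17:34305797-34305866, plus strand).
H2-Aa: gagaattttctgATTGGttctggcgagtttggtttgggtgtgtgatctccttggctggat
H2-Eb1: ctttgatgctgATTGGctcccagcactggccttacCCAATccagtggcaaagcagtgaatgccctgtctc

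ATTGG was found in 7 of 9 class II promoters (77.8%), in 14 of 19 class I promoters (73.7%) and in 4833 of 12193 promoters of all tested genes (39.6%), so that a match by itself sets few genes apart. It was present in all 15 promoters available for cholesterol synthesis genes. Of these, Idi1 (chr13:8885546-8885605, plus strand), Cyp51 (chr5:4104698-4104757, minus strand), Msmo1 (chr8:64733579-64733748, minus strand) and Sc5d (chr9:42264301-42264360, minus strand) are shown, which encode enzymes at successive stages of the pathway.
Idi1: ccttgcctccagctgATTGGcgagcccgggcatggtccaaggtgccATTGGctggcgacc
Cyp51: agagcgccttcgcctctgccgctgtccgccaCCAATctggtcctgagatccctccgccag
Msmo1: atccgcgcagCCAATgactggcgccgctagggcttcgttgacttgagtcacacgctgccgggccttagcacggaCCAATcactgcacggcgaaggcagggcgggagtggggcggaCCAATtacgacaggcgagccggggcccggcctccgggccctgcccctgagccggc
Sc5d: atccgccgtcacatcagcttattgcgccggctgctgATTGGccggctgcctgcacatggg

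Lysosomal promoters are shown with TCACGTGA, the centre of the element through which Tfeb acts: Ctsd (chr7:142387828-142387937, minus strand), Ctsa (chr2:164833713-164833772, plus strand), Cln3 (chr7:126583237-126583376, minus strand) and Mcoln1 (chr8:3500459-3500518, plus strand).
Ctsd: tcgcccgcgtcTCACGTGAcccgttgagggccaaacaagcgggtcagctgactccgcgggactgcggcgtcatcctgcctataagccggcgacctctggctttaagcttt
Ctsa: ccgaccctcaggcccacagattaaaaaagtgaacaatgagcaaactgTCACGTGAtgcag
Cln3: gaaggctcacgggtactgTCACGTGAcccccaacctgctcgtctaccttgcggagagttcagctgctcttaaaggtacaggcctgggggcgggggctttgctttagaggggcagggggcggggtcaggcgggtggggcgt
Mcoln1: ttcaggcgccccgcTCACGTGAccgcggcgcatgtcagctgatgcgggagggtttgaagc

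TCACGTGA stood in 6 of 48 lysosomal promoters (12.5%) and in 198 of 12193 promoters (1.62%). A match describes the sequence and says nothing of binding, and a promoter without one only lacks these letters in this window.

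Each PS19 library held 9630430 to 15739547 counts at 4 months and 11576982 to 12958200 at 9 months. Hippocampal neurons were represented at both ages, with Fibcd1, a marker of CA1, at 151 to 191 CPM and Rgs14, a marker of CA2, at 83.2 to 106 CPM over the 10 libraries. Mitochondrial genes took 2.91% to 3.18% of counts at 4 months and 3.22% to 3.51% at 9 months, so that all older libraries were higher in this share. Choroid plexus, which lies beside the hippocampus, entered the libraries unevenly. Its main product Ttr read 27.2 to 5315 CPM at 4 months, where replicates 1 and 5 nearly lacked it, and 4128 to 5325 CPM at 9 months. No gene among 18 choroid plexus and ependymal markers was called, with a median log2 fold change of 0.64, and of 0.14 when the 4-month replicates 1 and 5 were left out. Neutrophil markers S100a8, S100a9 and Ly6g had 0 to 0.388 CPM in any PS19 library.

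The transgene was checked through the genes that share sequence with it. Prnp, whose promoter drives the transgene, read 1954 to 2279 CPM (median 2159) at 4 months. At 9 months it read 2052, 1981, 2282 and 2184 CPM, which gave a log2 fold change of -0.01 (adjusted p = 0.929). Every PS19 library of either age was above all WT libraries, which read 848 to 982 CPM. Mapt, which encodes mouse tau and to which reads of human tau may map, read 663 to 749.6 CPM (median 721) at 4 months and 663, 611, 688 and 646 CPM at 9 months, a log2 fold change of -0.12 (adjusted p = 0.156). For Mapt too every PS19 library was above all WT libraries, which read 412 to 519.5 CPM. How many reads of the human transgene were counted under these mouse genes was not tested. No change of either gene between the ages passed the test, nor did that of Sprn, a gene tested beside them.

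Of 16133 genes tested, 2788 (17.3%) differed between 9 and 4 months in PS19 mice at an adjusted p under 0.05 in edgeR's quasi-likelihood test. Rises numbered 1614 (10.0% of genes tested) and falls 1174 (7.28%). Each list count below is to be read beside these shares, and a list near them does not stand apart from all genes. The lists were chosen with earlier results of these data known, so a share above these describes a list and does not test it. The rises were the larger changes: 522 genes rose and 15 fell by more than 2-fold, and the median change was 1.59-fold among the genes called higher and 16.8% less RNA among those called lower. In 1309 genes (8.11%) all 4 libraries of 9 months lay above all 6 of 4 months, and in 831 (5.15%) all lay below, without regard to the test. In WT hippocampus edgeR called 0 genes between the same ages (0.0%), with 1802 at an unadjusted p under 0.05, and DESeq2 called 78. The difference between the PS19 and the WT age change was itself called in 872 genes (5.41%), 705 of them with the more positive change in PS19. The number of calls was lowest when the 9-month replicate 5 was left out. Without that library 1749 genes were called, 1108 higher and 641 lower, and 514 differed in age change from WT, 457 with the more positive and 57 with the more negative change in PS19. All 2788 genes had the same direction without it. Calls of lower genes also fell to 727 without the 9-month replicate 3 and to 751 without replicate 4. Without the 4-month replicates 1 and 5, which nearly lacked choroid plexus RNA, 1239 genes were called higher and 554 lower. Shares of all genes set beside a list are those of the fit to all libraries. Counts of list members without a library are to be read beside the calls over all genes in that fit.

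**Figure D1:**
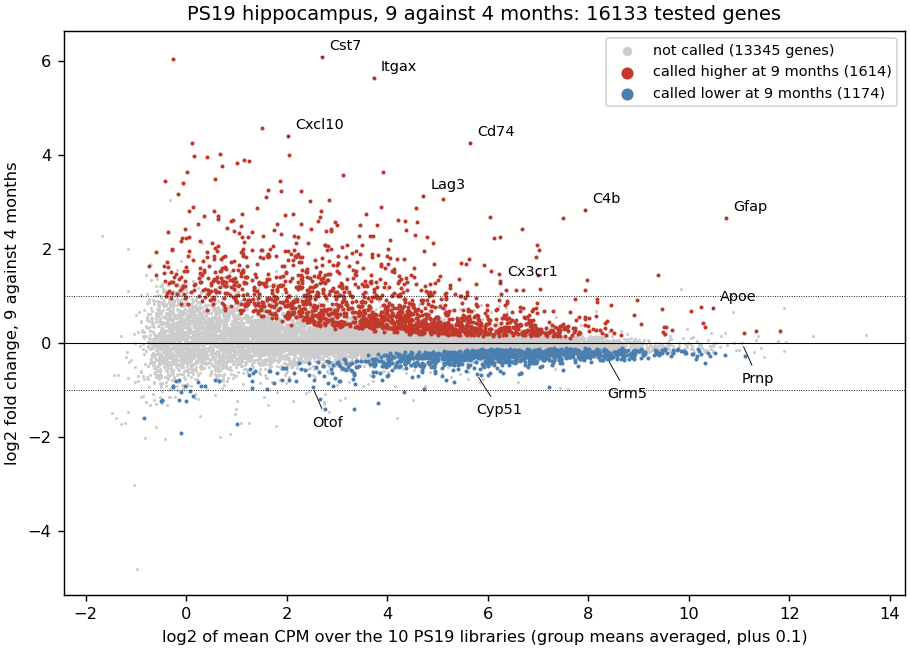
Each point is a gene, with the log2 of its mean CPM in the PS19 libraries on the x axis and its log2 fold change of 9 against 4 months on the y axis; red and blue points are the 1614 and 1174 genes called higher and lower, and dotted lines mark a 2-fold change. Rises reach far beyond 2-fold, while nearly all called falls lie within it and at middle to high levels.

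Genes of microglia were among the largest rises. Levels are in CPM, given for 4 months as the lowest to the highest of the 6 libraries with the median, and for 9 months as the values of replicates 1, 3, 4 and 5 in that order. Fold changes are log2 values from the fit across all genes, and adjusted p-values are from edgeR. Cst7 (chr2:150570415-150578944), an inhibitor of cathepsins and a marker of disease-associated microglia, read 0.104 to 0.252 CPM (median 0.169) at 4 months and 14.6, 9.63, 13 and 13.8 CPM at 9 months (log2 fold change 6.09, SE 0.32, adjusted p = 9.2e-12). Itgax (chr7:128129547-128150657), an integrin subunit of activated microglia, read 0.208 to 0.924 CPM (median 0.501) at 4 months and 29.1, 23.1, 34.2 and 17.1 CPM at 9 months (log2 fold change 5.64, SE 0.39, adjusted p = 4.98e-10). Both were close to the detection limit in all libraries of 4 months and clearly present in all 4 libraries of 9 months, with no overlap.

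The receptor side of the programme rose as well. Trem2 (chr17:48346401-48354147) read 8.82 to 14.4 CPM (median 10.3) and then 45, 42.5, 49.7 and 57.5 CPM (log2 fold change 2.13, SE 0.15, adjusted p = 1.13e-09), and its signalling adaptor Tyrobp (chr7:30413760-30417585) read 7.34 to 8.54 CPM (median 7.97) and then 40.8, 38, 30.5 and 46.8 CPM (log2 fold change 2.30, SE 0.14, adjusted p = 4.84e-11). All 9-month libraries of both genes lay far above the highest library of 4 months. Among 34 tested genes of the disease-associated state, 28 rose and 1 fell, with a median log2 fold change of 1.58, against -0.005 over all genes tested. The WT median of the same list was 0.02, and the age change differed from WT in 27 members. Rises covered secreted lysozyme Lyz2 (3.06), the chemokine Ccl6 (4.00), the phagocytic receptor Axl (0.85), the growth factor Csf1 (0.84), the extracellular phosphoprotein Spp1 (2.88) and the membrane glycoprotein Gpnmb (2.74). The chemokine Ccl4 had 1 count over the 6 libraries of 4 months and 72 over the 4 of 9 months, a ratio of 114.2 on the CPM scale with a 95% counting interval of 19.9 to 4572. Apoe (chr7:19696109-19699188), the lipid carrier and a gene of both astrocytes and activated microglia, rose 1.67-fold from a median of 1068 CPM (873 to 1263) to 1694, 1848, 1597 and 1966 CPM (log2 fold change 0.74, SE 0.08, adjusted p = 1.07e-06). Lpl, which encodes lipoprotein lipase and belongs to the same signature, did not pass the test (0.07, adjusted p = 0.814), and the adhesion molecule Cadm1, which is also expressed by neurons, fell by 0.17 on the log2 scale (adjusted p = 0.0231). That call was lost without the 4-month replicate 1 (adjusted p = 0.0596) or the 9-month replicates 1 (0.119), 3 (0.0512) or 5 (0.0666).

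Genes of resting microglia rose too. The chemokine receptor Cx3cr1 (chr9:119901616-120069879) read 42.4 to 47 CPM (median 44.4) at 4 months and 96.7, 104, 109 and 122 CPM at 9 months (log2 fold change 1.27, SE 0.08, adjusted p = 1.03e-10). It did not overlap between the ages, and the 4 libraries of 9 months lay close together. All 15 tested homeostatic genes were called higher, with a median of 1.01, and with the age change called different from WT in 13. They spanned purinergic receptors (P2ry12 0.58, P2ry13 1.18), the survival receptor Csf1r (1.15), the transcription factor Sall1 (0.58) and the membrane protein Tmem119 (1.01). Lineage and survival factors moved the same way in 13 of 17 tested members, among them the myeloid transcription factors Spi1 (1.44), Irf8 (1.89) and Runx1 (2.01), the pan-leukocyte phosphatase Ptprc (2.10) and Tgfb1 (1.12). Whether there were more microglia or more RNA of these genes in each cannot be told apart in bulk tissue. Border macrophages, myeloid cells of vessels and meninges that share many of these genes, moved the same way: 6 of 7 tested markers rose, their summed level was 21.8 to 32.5 CPM at 4 months and 45, 65.1, 41 and 57.5 CPM at 9 months, and their part in the microglial values was not tested.

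Fc receptor genes and genes that signal downstream of Trem2 and Fc receptors rose throughout. All 22 tested genes of this list were called higher (median 1.69), and 21 had a more positive age change than in WT. Fc receptors were represented by Fcgr2b (2.51), Fcgr3 (1.81) and Fcgr1 (1.65), kinases by Syk (0.80), Btk (1.85) and Lyn (1.28), phosphatases by Inpp5d (1.18) and Ptpn6 (1.75), and the oxidase that makes superoxide by Cybb (3.11), Cyba (1.73) and Ncf1 (1.55). Cybb went from a median of 0.645 CPM (0.257 to 1.14) to 3.58, 4.97, 5.42 and 6.84 CPM, with the 2 ages apart. Plcg2, the phospholipase that transmits Trem2 signals, rose by 0.80 (adjusted p = 2.37e-05). Among genes near common risk loci for late-onset dementia, 14 of 32 rose and 1 fell, and the risers were largely myeloid genes already named, with Clu (0.76), Cd33 (1.32) and Abi3 (1.20). App (-0.09), Bin1 (-0.07) and Picalm (0.08) did not pass the test.

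Complement, which tags synapses and debris for removal, rose from its first component to its receptors. C1qa (chr4:136895917-136898803) read 27.6 to 37.2 CPM (median 32.4) at 4 months and 155, 175, 153 and 212 CPM at 9 months (log2 fold change 2.42, SE 0.12, adjusted p = 1.63e-12). C4b (chr17:34728380-34743882), made by astrocytes and oligodendrocytes and counted beside a near-identical copy, read 39.6 to 75.6 CPM (median 63) and then 390.1, 368, 424 and 544 CPM (log2 fold change 2.83, SE 0.20, adjusted p = 1.13e-09). C3 went from a median of 4.14 CPM (2.69 to 5.46) to 14.4, 13.2, 21.7 and 44.5 CPM (log2 fold change 2.52, SE 0.30, adjusted p = 2.79e-06), and its 9-month replicate 5 stood above the other 3. For none of these genes did the ages overlap. Receptors for cleaved complement rose (C3ar1 2.67, C5ar1 1.96, Itgam 1.23, Itgb2 2.27), as did the inhibitor Serping1 (1.38), whereas the alternative pathway gene Cfp (-0.23) did not pass the test. In all, 15 of 23 tested members rose and 0 fell, with a median of 1.03.

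Genes of antigen presentation and of the interferon response rose. The 9-month libraries stood in a different order in the class II genes Cd74, H2-Aa and H2-Ab1 than in class I and interferon genes. Cd74, the invariant chain of MHC class II, read 2.93 to 7.33 CPM (median 4.97) at 4 months and 115, 95.6, 120.1 and 50.5 CPM at 9 months (log2 fold change 4.25, SE 0.32, adjusted p = 1.99e-09). The class II alpha chain H2-Aa (chr17:34282744-34287823) read 0.963 to 4.38 CPM (median 1.82) and then 30.4, 26.6, 36.3 and 17.1 CPM (log2 fold change 3.63, SE 0.34, adjusted p = 6.87e-08), and the beta chain H2-Ab1 (chr17:34257689-34269419) read 0.572 to 3.03 CPM (median 1.07) and then 16.4, 15.9, 20.3 and 10.6 CPM (log2 fold change 3.57, SE 0.34, adjusted p = 8.35e-08). In all 3 genes the ages were separate and replicate 5 was the lowest of the 9-month libraries. Of 12 tested genes of class II presentation 11 rose (median 2.17). They included the protease Ctss that trims the invariant chain (2.09), and the class II transactivator Ciita (0.92, adjusted p = 0.0245), which overlapped between the ages and was not called without the 4-month replicate 4 (adjusted p = 0.0501) or the 9-month replicates 1 (0.11) or 3 (0.077). The peptide editor subunit H2-DMa was at 0.06 (adjusted p = 0.741). Summed over the list the 9-month libraries differed little, at 532, 525.7, 542 and 547 CPM, of which Ctss alone gave 181, 198, 183 and 258 CPM.

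Class I and interferon genes were highest in replicate 5, the library of 9 months that was lowest for Cd74, H2-Aa and H2-Ab1. B2m (chr2:122147686-122153083), the light chain of class I, read 45.6 to 77.2 CPM (median 51.6) at 4 months and 152, 193, 127 and 301 CPM at 9 months (log2 fold change 1.82, SE 0.21, adjusted p = 1.73e-06), and the heavy chain H2-K1 (chr17:33996017-34000347) read 15.9 to 30.8 CPM (median 21.7) and then 56.2, 67.9, 41.6 and 142 CPM (log2 fold change 1.78, SE 0.31, adjusted p = 0.000331). Replicate 5 was the highest library for both and replicate 4 the lowest of its age, still above all libraries of 4 months. Class I heavy chains are close copies of one another, so reads may be split between them. Ifit3 (chr19:34583531-34588731), an interferon-induced antiviral protein, went from a median of 4.96 CPM (3.88 to 7.23) to 15.3, 17.9, 12.1 and 81.9 CPM (log2 fold change 2.62, SE 0.47, adjusted p = 0.000409). Oasl2 went from a median of 3.42 CPM (2.73 to 4.45) to 8.32, 12.7, 5.16 and 76.5 CPM (log2 fold change 2.89, SE 0.56, adjusted p = 0.000943), and the interferon-induced chemokine Cxcl10 (chr5:92346638-92348889) from a median of 0.282 CPM (0.0714 to 0.79) to 3.58, 2.56, 2.67 and 21.7 CPM (log2 fold change 4.40, SE 0.70, adjusted p = 0.000111). Without replicate 5 the log2 fold changes were 1.54 for Ifit3, 1.33 for Oasl2 (adjusted p = 0.0376) and 3.01 for Cxcl10. These 3 genes did not overlap between the ages, yet replicate 5 alone exceeded the other 9-month libraries several times over.

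Of 37 tested interferon response genes 36 rose, beside 10.0% of all genes, with a median of 1.83. In 25 of the 37 all older libraries were higher, beside 8.11% of all genes. Summed over the list, the 9-month libraries held 378, 462, 320.4 and 1168 CPM against 192 to 245 CPM at 4 months. Without replicate 5 the list's median was 1.18 and 25 of its members were called higher. Calls for Irf7 (adjusted p = 0.0529), Ifit1 (0.0781) and Gbp3 (0.0688) were lost without that library, while Irgm1 (0.000159), Gbp2 (0.00103), Ifitm3 (0.000662) and Irf8 (1.29e-09) were still called. In WT mice the list's median was -0.61 and none of its genes was called, with 203 to 486 summed CPM (median 257) at 4 months and 192 to 234 at 9 months. The highest WT sum at 4 months exceeded those of the PS19 9-month replicates 1, 3 and 4. The difference between the age changes was called in 35 members, and in 24 without the 9-month PS19 replicate 5. How this count depends on single WT libraries is not reported here. For Usp18, which limits interferon signalling, the PS19 change was 2.71, the WT change -1.43 and the difference 4.14 (adjusted p = 0.000965). Without replicate 5 the PS19 change of Usp18 was 1.65 (adjusted p = 0.0157).

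Genes that receive or start interferon signals had a median log2 fold change of 0.39. The nucleic acid receptor Tlr7 (1.82, adjusted p = 2.52e-06), the DNA-sensing adaptor Tmem173 (1.19, adjusted p = 0.000329) and the interferon gamma receptor chain Ifngr1 (0.61, adjusted p = 0.000439) were called, as were 6 of 13 tested genes of this kind in all. The interferon receptor chain Ifnar1 (0.07, adjusted p = 0.362) was not. The ligand genes Ifng and Ifnb1 had 0 counts in the PS19 libraries of either age and could not be tested. Other interferon ligand genes are not reported here, and the source of the signal was not tested. For class I presentation 16 of 21 tested genes rose (median 1.24), with the peptide transporter Tap1 (1.53), the immunoproteasome subunit Psmb8 (1.89) and the transactivator Nlrc5 (2.00) among them, and 13 were called without replicate 5.

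**Figure D2:**
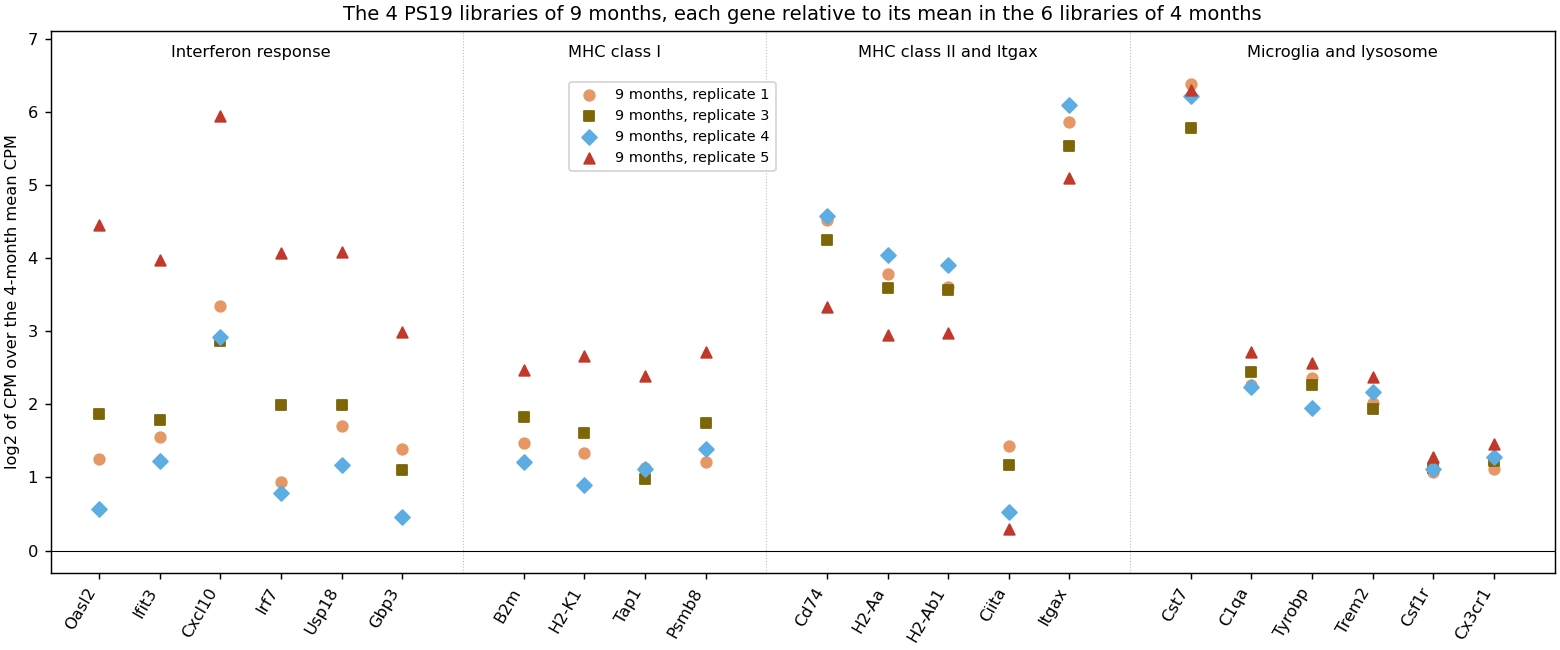
Each symbol is 1 of the 4 PS19 libraries of 9 months, as log2 of its CPM over the mean of the 6 libraries of 4 months (y axis), for named genes of 4 groups (x axis). Replicate 5 (red triangles) stands highest for interferon response and MHC class I genes and lowest for the 4 plotted MHC class II genes and Itgax, whereas the 4 libraries lie close together for Csf1r.

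Most tested genes of Toll-like receptor and inflammasome signalling rose. Cd14, the co-receptor for bacterial lipid, read 0.924 to 2.11 CPM (median 1.44) at 4 months and 6.41, 7.53, 6.63 and 7.90 CPM at 9 months (log2 fold change 2.27, SE 0.21, adjusted p = 6.63e-08), with no overlap and little spread at 9 months. Of 24 tested genes of Toll-like receptor and inflammasome signalling, 17 rose (median 1.17), among them Tlr2 (2.43), Tlr4 (1.40), the TNF receptor Tnfrsf1a (1.50), the inflammasome adaptor Pycard (1.55) and the pore-forming Gsdmd (1.22). The cytokine genes Il1b (10 and 29 counts over the PS19 libraries of 4 and 9 months), Tnf (7 and 15) and Il6 (6 and 6) had too few counts to be tested. Chemokines and their receptors rose in 10 of 15 tested members, beside 10.0% of all genes, with Cxcl16 at 1.97.

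Receptors that restrain immune cells rose. Lag3 (chr6:124904361-124911705), known as a checkpoint receptor of T cells and also found on microglia, read 4.12 to 7.63 CPM (median 5.00) at 4 months and 40.6, 51, 42.7 and 53.9 CPM at 9 months (log2 fold change 3.13, SE 0.17, adjusted p = 9.2e-12). Pdcd1, which encodes the checkpoint receptor PD-1, read 0.128 to 0.52 CPM (median 0.23) and then 3.25, 5.12, 4.04 and 3.42 CPM (log2 fold change 3.90, SE 0.38, adjusted p = 1.19e-07), and its ligand Cd274 read 1.99 to 3.43 CPM (median 2.72) and then 5.83, 5.75, 4.91 and 9.34 CPM (log2 fold change 1.29, SE 0.24, adjusted p = 0.000592). All 4 libraries of 9 months exceeded all 6 of 4 months in each gene. Across 19 tested checkpoint and ligand genes 15 rose, and Cd200, by which neurons restrain microglia, fell from a median of 87.9 CPM (78 to 95.1) to 73.3, 66, 65.7 and 76.2 CPM (log2 fold change -0.30, SE 0.07, adjusted p = 0.00325). T cell genes had few counts. Summed over the 6 libraries of 4 months and the 4 of 9 months, the receptor chain genes Cd3e had 0 and 12 counts and Cd3g 1 and 13, the co-receptor genes Cd8a 4 and 27, Cd8b1 0 and 11 and Cd4 30 and 30, and the chemokine gene Ccl5 3 and 82. These genes were too low to be tested, and their counts in the 6 and 5 WT libraries were 7 and 3 for Cd3e, 6 and 3 for Cd3g, 3 and 3 for Cd8a, 0 and 0 for Cd8b1, 27 and 28 for Cd4, and 22 and 5 for Ccl5. Only 8 of 35 T and NK cell genes had enough counts to be tested, and Pdcd1 was the only one called. Summed over the tested ones, Pdcd1 included, the PS19 libraries held 10.1 to 12.5 CPM at 4 months and 14, 17.6, 13.2 and 14.6 CPM at 9 months. Pdcd1 itself gave 0.128 to 0.52 CPM of these sums at 4 months and 3.25, 5.12, 4.04 and 3.42 CPM at 9 months. Without Pdcd1 the sums of the ages overlapped.

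Astrocytes showed a reactive profile. Gfap (chr11:102887336-102900912), the filament protein that marks reactive astrocytes, read 336 to 641 CPM (median 453) at 4 months and 2664, 2702, 3059 and 3306 CPM at 9 months (log2 fold change 2.66, SE 0.12, adjusted p = 8.48e-13), a 6.33-fold rise. Serpina3n (chr12:104406729-104414329), a secreted protease inhibitor, went from a median of 49.6 CPM (43.2 to 57.6) to 226, 303, 247 and 476 CPM (log2 fold change 2.65, SE 0.17, adjusted p = 2.55e-10), and the filament protein Vim (chr2:13573927-13582826) from a median of 53.5 CPM (38 to 60.1) to 163, 175, 182 and 302 CPM (log2 fold change 1.99, SE 0.16, adjusted p = 5.43e-09). No library of 4 months reached any library of 9 months, and replicate 5 was highest in all 3 genes. The list of reactive astrocyte genes had 26 of 30 tested members higher and 1 lower (median 1.60). It shares genes with the interferon, complement and lysosomal lists. The single member that fell was Tnc, an extracellular matrix protein, from a median of 10.3 CPM (8.54 to 12.8) to 4.50, 5.20, 6.80 and 7.52 CPM (log2 fold change -0.81, SE 0.20, adjusted p = 0.00854); its WT age change was -0.61. Lcn2, often used as a marker of inflamed astrocytes, was near 0 in most 4-month libraries and read 1.42, 3.57, 1.21 and 4.03 CPM at 9 months, with log2 fold changes of 2.70 in PS19 (adjusted p = 0.0242) and 2.75 in WT (0.336). Without the 4-month replicate 6 the PS19 change of Lcn2 was 5.51. The PS19 call was lost without the 4-month replicate 1 (0.0528) or the 9-month replicates 3 (0.0688) or 5 (0.0935), without the 4-month replicates 1 and 5 (0.107), and in DESeq2 (0.11).

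RNA of the oncostatin M receptor and of genes that signal below it rose. Osmr (chr15:6813577-6874969) read 6.25 to 7.90 CPM (median 6.84) at 4 months and 40.8, 39.8, 36.4 and 47 CPM at 9 months (log2 fold change 2.56, SE 0.13, adjusted p = 4e-12), against a WT age change of 0.08 (difference 2.49, adjusted p = 1.11e-08). Stat3, the transcription factor it activates, read 49.5 to 58.7 CPM (median 56.4) and then 87.2, 79.7, 88.7 and 101 CPM (log2 fold change 0.69, SE 0.07, adjusted p = 3.18e-07), and the feedback inhibitor Socs3 read 0.832 to 2.86 CPM (median 1.54) and then 6.08, 11.1, 7.06 and 13.1 CPM (log2 fold change 2.43, SE 0.32, adjusted p = 8.67e-06). The ages did not overlap in these 3 genes. Cytokines and receptors of the same family gave 9 of 15 called higher, with Lif (1.86), Cntf (1.41) and the STAT3 target Bcl3 (2.87); without the 9-month replicate 5 the age change differed from WT in 4 members, against 8 with it.

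Genes for the resting functions of astrocytes rose by smaller steps. The water channel Aqp4 read 158 to 233 CPM (median 203) at 4 months and 305, 339, 389 and 477 CPM at 9 months (log2 fold change 0.94, SE 0.11, adjusted p = 2.1e-06), and the potassium channel Kcnj10 read 193 to 259.5 CPM (median 228) and then 343, 282, 409 and 322 CPM (log2 fold change 0.57, SE 0.11, adjusted p = 0.000837). Both lay higher in all 4 older libraries. The glutamate transporter Slc1a3 rose as well (0.34, adjusted p = 0.00019), within a list where 14 of 20 members rose and 0 fell (median 0.34).

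Genes of reactive oligodendrocytes rose, whereas most myelin genes did not pass the test. Genes known from oligodendrocytes near pathology rose in 13 of 14 tested members (median 1.49). The list shares C4b, Serpina3n, B2m, H2-K1, H2-D1 and Cd63 with those above and Cdkn1a with the injury list below. Of the members not shared, the protease Klk6 went from a median of 1.28 CPM (1.16 to 2.87) to 8.57, 8.23, 6.11 and 21.4 CPM (log2 fold change 2.81, SE 0.32, adjusted p = 1.25e-06) and the alarmin Il33 from a median of 46.1 CPM (40.3 to 56) to 62.9, 74.3, 81.8 and 95 CPM (log2 fold change 0.71, SE 0.12, adjusted p = 0.000154). The ages were apart in both, and replicate 5 was highest. The lipid droplet gene Plin4 varied widely between the 9-month libraries, at 6.91, 51.1, 19.3 and 6.46 CPM, against 2.66 to 7.07 CPM (median 3.67) at 4 months (log2 fold change 2.28, SE 0.52, adjusted p = 0.00363). Without the 9-month replicate 3 its log2 fold change was 1.34 and it was not called (adjusted p = 0.0657). In the list of oligodendrocyte and myelin genes 4 of 23 were called higher and 0 lower (median 0.13), beside 10.0% of all genes called higher. Without the 9-month replicate 4 or 5, 2 were called higher. The iron carrier Trf rose (0.92, adjusted p = 1.59e-06), whereas the myelin gene Mbp (0.14, adjusted p = 0.259) did not pass.

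**Figure D3:**
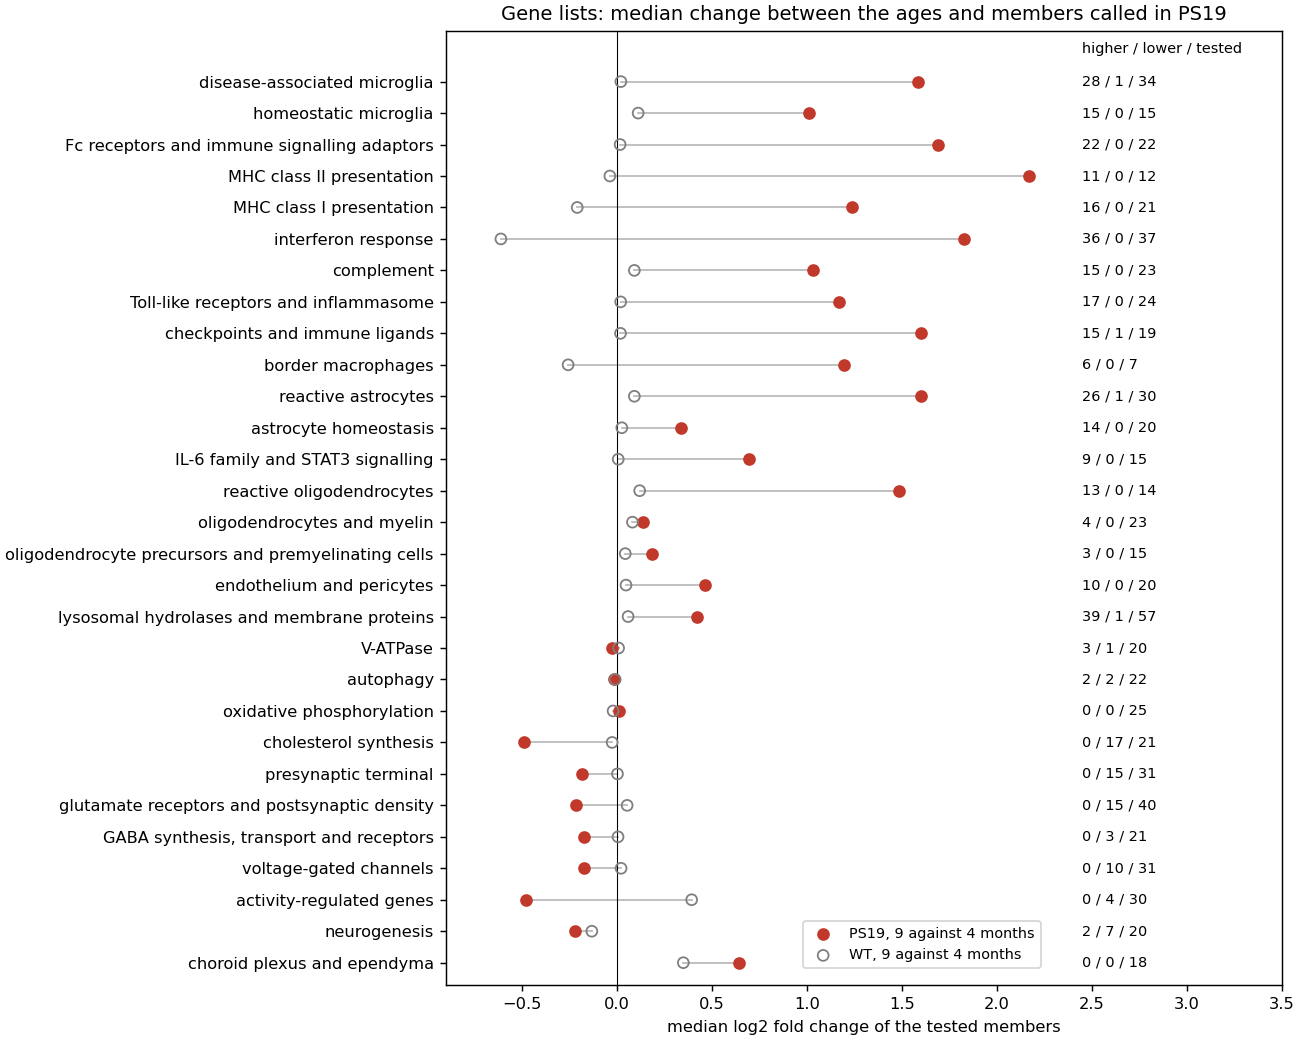
Filled points give the median log2 fold change of 9 against 4 months (x axis) over the tested members of each gene list (y axis) in PS19, and open points the same median in WT; the numbers at the right count the members called higher, called lower and tested in PS19. Immune and reactive glial lists lie far to the right in PS19 and near 0 or below in WT, and cholesterol synthesis and synaptic lists lie to the left.

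Lysosomal hydrolases and membrane proteins rose, whereas most genes of the proton pump that acidifies the lysosome did not pass the test. Ctsd (chr7:142375911-142388038), an aspartic protease and 1 of the promoters printed above with TCACGTGA, read 288 to 418 CPM (median 370.0) at 4 months and 992, 940.1, 947 and 1063 CPM at 9 months (log2 fold change 1.45, SE 0.11, adjusted p = 4.1e-09). Laptm5 (chr4:130913125-130936141), a lysosomal membrane protein of blood-derived and microglial cells, read 32.1 to 36.7 CPM (median 34.5) and then 94.2, 94.7, 94.5 and 112 CPM (log2 fold change 1.52, SE 0.07, adjusted p = 8.48e-13). Grn, the precursor of lysosomal granulins, read 48 to 54 CPM (median 52) and then 109, 107, 102 and 133 CPM (log2 fold change 1.13, SE 0.07, adjusted p = 1.17e-10). The ages stood apart in these genes, and replicate 5 was the highest library of 9 months in each. For Laptm5 it stood clear of the other libraries of its age. Of 57 tested hydrolases and membrane proteins 39 rose and 1 fell (median 0.42), and 26 had a more positive age change than WT.

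The size of the rise varied over the lysosomal list. The cathepsins Ctss (2.09) and Ctsz (1.65) and the mannosidase Man2b1 (1.46) rose, as did the membrane proteins Lamp1 (0.46, adjusted p = 7.18e-08) and Scarb2 (0.32, adjusted p = 9.68e-05). Mcoln1, the calcium channel whose promoter carries the same TCACGTGA, was at 0.07 (adjusted p = 0.484), and Cln3 rose by 0.34 (adjusted p = 0.0254, and 0.0917 without the 9-month replicate 3). Npc1 (0.07, adjusted p = 0.49) and Tmem106b (-0.05, adjusted p = 0.492) did not pass the test. Ids, an iduronate sulfatase with a high level in neurons, fell by 0.15 on the log2 scale (adjusted p = 0.032). This call was lost without the 4-month replicates 2 (0.0757), 5 (0.0518) or 6 (0.0588), the 9-month replicates 1 (0.118), 3 (0.14) or 5 (0.0773) or the WT 9-month replicate 2 (0.05).

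Of 20 tested V-ATPase genes 3 rose and 1 fell, near the 10.0% and 7.28% of all genes, with a median of -0.03. The member with the largest rise was Tcirg1, the a3 subunit of myeloid cells and osteoclasts, from a median of 15.6 CPM (12 to 18.5) to 28, 25.1, 25.5 and 33.1 CPM (log2 fold change 0.85, SE 0.12, adjusted p = 3e-05). Its neuronal counterpart Atp6v0a1 read 481 to 549.7 CPM (median 519) at 4 months and 465.7, 476, 457 and 438 CPM at 9 months (log2 fold change -0.17, SE 0.05, adjusted p = 0.0154). Tcirg1 was higher in all 4 older libraries and Atp6v0a1 lower in all 4. The call for Atp6v0a1 was lost without the 9-month replicate 5 (adjusted p = 0.0712) and without the 4-month replicates 1 and 5 (0.122). The catalytic subunits Atp6v1a (-0.06, adjusted p = 0.531) and Atp6v1b2 (-0.07, adjusted p = 0.397) did not pass. Tfeb rose from a median of 9.21 CPM (8.01 to 10.3) to 11.6, 11.7, 9.98 and 14.1 CPM (log2 fold change 0.36, SE 0.10, adjusted p = 0.0194), with replicate 4 inside the 4-month range, and its adjusted p was 0.122 without replicate 5 and 0.0878 without the 4-month replicates 1 and 5. Its relative Tfe3 (0.13, adjusted p = 0.203) did not pass, nor did Mitf (0.53, adjusted p = 0.0615), which was called without the 4-month replicate 3 (0.0338) and without a WT replicate 3 of 4 (0.0496) or 9 months (0.0283). The wider list of these factors and of lysosomal nutrient sensing had 2 members higher and 4 lower of 22, beside 10.0% and 7.28% of all genes, and 0 to 2 lower when any of 13 libraries was left out, among them each of the 4 libraries of 9 months.

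Most genes of cholesterol synthesis fell. Sqle (chr15:59315077-59331192), the epoxidase that acts on squalene, read 62.5 to 78 CPM (median 65.8) at 4 months and 45.2, 41.4, 46.2 and 51.9 CPM at 9 months (log2 fold change -0.57, SE 0.08, adjusted p = 3.36e-05), and so fell by 32.5%. Cyp51 (chr5:4081145-4104746), the sterol demethylase, read 61.6 to 77.9 CPM (median 66.5) and then 44, 36, 41.4 and 47.5 CPM (log2 fold change -0.67, SE 0.07, adjusted p = 9.41e-07). In both genes every library of 9 months was below every library of 4 months, and replicate 3 was the lowest. Of 21 tested genes 17 fell, beside 7.28% of all genes, and 0 rose, with a median of -0.49. In 16 all older libraries were lower, beside 5.15% of all genes.

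The falls ran from the first steps (Hmgcs1 -0.58, Mvd -0.63, Idi1 -0.76) over squalene synthesis and oxidation (Fdft1 -0.48 and Sqle) to the late steps (Msmo1 -0.64, Sc5d -0.38, Dhcr7 -0.51). The regulator Srebf2 (chr15:82147181-82205379) fell from a median of 244 CPM (224 to 261) to 194, 176, 164 and 202 CPM (log2 fold change -0.40, SE 0.07, adjusted p = 0.000249), and the retention protein Insig1 fell by 0.53 on the log2 scale (adjusted p = 0.00107). Mvk (-0.26, adjusted p = 0.196), Pmvk (-0.12, adjusted p = 0.316), Nsdhl (-0.25, adjusted p = 0.0857) and Ebp (0.06, adjusted p = 0.767) did not pass. WT mice had a median of -0.03 for the list, and 10 members differed in age change from WT, with Srebf2 at -0.45 (adjusted p = 0.00392). Counts of called members were 17 without the 9-month replicate 5 and 16 without the 4-month replicates 1 and 5. The Fdft1 and Ctsb genes overlap and strand was not used in counting; their log2 fold changes were -0.48 and 0.71.

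Several genes of lipid handling rose, and few fell. The exporter Abca1 (chr4:53030787-53159895) read 56.4 to 74.5 CPM (median 62.3) at 4 months and 123, 130.5, 158 and 156 CPM at 9 months (log2 fold change 1.13, SE 0.08, adjusted p = 1.86e-09). All older libraries were higher for Abca1. The lysosomal sterol carrier Npc2 (0.89, adjusted p = 1.58e-05) and the esterifying enzyme Soat1 (0.30, adjusted p = 0.00667) rose, and the neuronal cholesterol hydroxylase Cyp46a1 fell by 0.19 on the log2 scale (adjusted p = 0.0374). The Cyp46a1 call was lost without the 4-month replicates 1 (0.0787), 3 (0.0535) or 5 (0.0843), without any of the 4 libraries of 9 months (0.0773 to 0.116) or without a WT replicate 4 of either age (0.0532 and 0.0543). Over this list 10 of 22 members rose and 2 fell, the falls near the 7.28% of all genes. With the 4-month replicates 1 and 5 left out, 5 were higher and 1 lower. Without the 9-month replicate 5, 9 were higher and 1 lower.

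**Figure D4:**
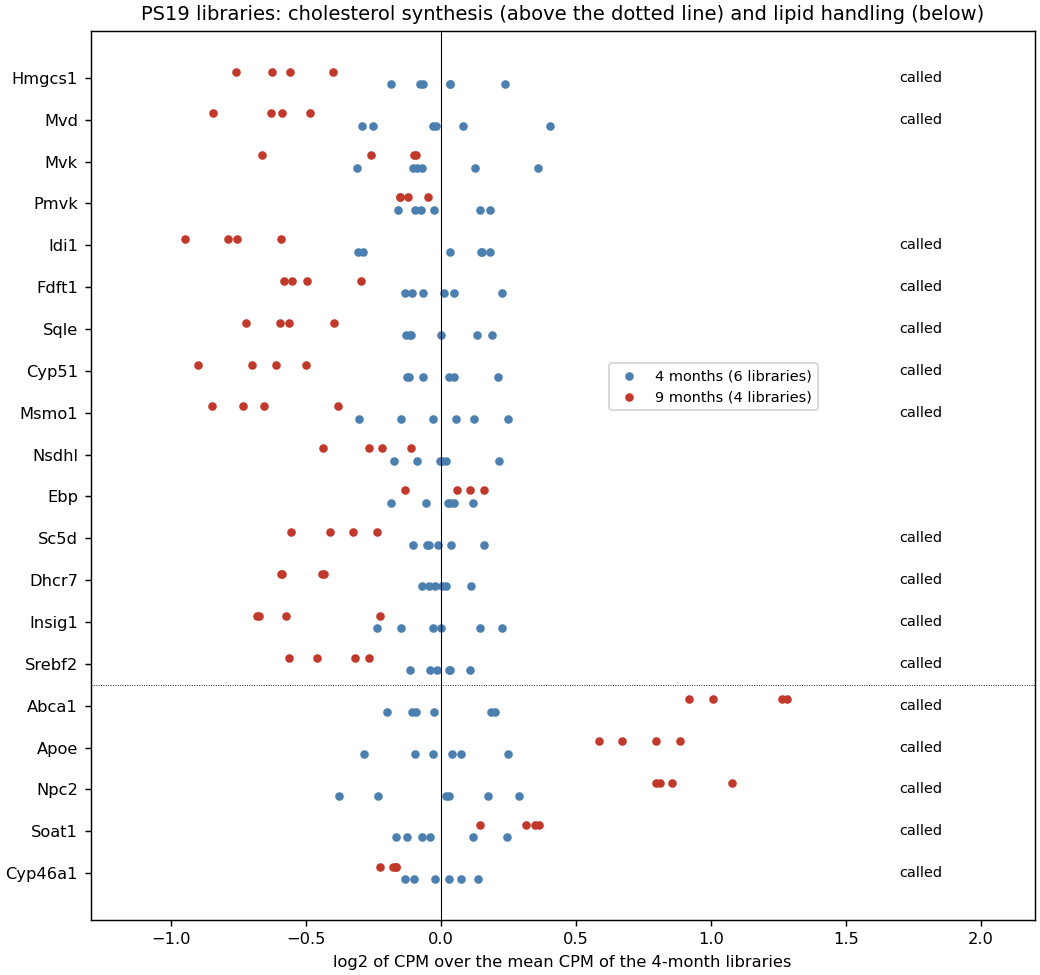
Each row is a named gene of cholesterol synthesis (above the dotted line) or lipid handling (below), and each point a PS19 library, placed by the log2 of its CPM over the mean of the 4-month libraries (x axis); blue points are the 6 libraries of 4 months, red points the 4 of 9 months, and genes called by edgeR are marked. The red points lie to the left of the blue for most synthesis genes, and to the right for Abca1, Apoe and Npc2.

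A part of the neuronal and synaptic genes fell, by small fractions, and most did not pass the test. Unc13a (chr8:71624417-71671757), which primes synaptic vesicles, read 339.5 to 413 CPM (median 382) at 4 months and 318, 310.1, 297 and 279 CPM at 9 months (log2 fold change -0.34, SE 0.07, adjusted p = 0.000777), and so fell by 20.9%. The vesicle protein gene Syn1 read 418 to 508 CPM (median 455) and then 366, 385, 376 and 377 CPM (log2 fold change -0.28, SE 0.06, adjusted p = 0.00215). Neither gene overlapped between the ages. In the presynaptic list 15 of 31 tested genes fell, beside 7.28% of all genes, and 0 rose (median -0.18). With the 4-month replicates 1 and 5 left out 7 were lower. The age change differed from WT in 6 of the 31. The 15 included the active zone scaffold Pclo (-0.36, adjusted p = 0.00418) and the N-type calcium channel Cacna1b (-0.36, adjusted p = 0.00204). The vesicular glutamate transporter Slc17a7 (-0.15, adjusted p = 0.154) and Snap25 (-0.15, adjusted p = 0.0878) did not pass. Summed over the list, the libraries of 9 months held 13860, 13900, 14130 and 13520 CPM and those of 4 months 15310 to 17360 CPM. The mitochondrial share was higher in the same older libraries, and its part was not tested. With microglial and astrocytic RNA also higher there, a smaller share of neuronal RNA and less RNA of these genes in each neuron cannot be told apart.

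On the postsynaptic side Grm5 (chr7:87584168-88134907), a metabotropic glutamate receptor, read 335 to 395 CPM (median 382) at 4 months and 309, 279, 304 and 287 CPM at 9 months (log2 fold change -0.33, SE 0.05, adjusted p = 9.28e-05). All its libraries of 9 months were below those of 4 months, and its age change was called different from WT (difference -0.34, adjusted p = 0.00528). Glutamate receptor and scaffold genes fell in 15 of 40 tested members, beside 7.28% of all genes, and rose in 0 (median -0.22). Without the 9-month replicate 5, 6 were called lower, and 9 without the 4-month replicates 1 and 5. In 5 of the 40 the age change differed from WT. Camk2a (-0.17, adjusted p = 0.125) and Gria1 (-0.12, adjusted p = 0.204) did not pass.

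Voltage-gated ion channel genes fell in 10 of 31 tested members, beside 7.28% of all genes, and in 5 without the 4-month replicates 1 and 5. The sodium channel gene Scn2a (-0.31, adjusted p = 0.00236) was among the 10. The age change differed from WT in 3 of the 31. Of 21 GABA genes 3 fell, beside 7.28% of all genes, and 0 or 1 without the 4-month replicates 2, 5 or 6 or the 9-month replicates 1, 3 or 5. Gad1 (-0.18, adjusted p = 0.255) and Slc32a1 (-0.41, adjusted p = 0.141), which make and load GABA, did not pass. Dentate granule neuron markers were called lower in 3 and higher in 1 of 15 (median -0.32). In 4 all older libraries were lower, beside 5.15% of all genes. Summed over the list, the libraries of 9 months held 636, 724, 647 and 610.5 CPM and those of 4 months 751 to 905 CPM. Lower calls numbered 1 without the 4-month replicate 3 or the 9-month replicates 1 or 5. They numbered 7 without the WT 9-month replicate 3, 7 when PS19 libraries were fitted alone, and 5 in DESeq2. The age change differed from WT in 1 member. For CA1 1 of 10 was lower, for CA3 and CA2 1 of 12, and for interneurons 2 of 19, beside 7.28% of all tested genes called lower. Oxidative phosphorylation genes had 0 calls in either direction of 25, with a median of 0.01.

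Of 30 tested genes that respond to neuronal activity 4 were called lower, beside 7.28% of all genes. Nr4a3, a nuclear receptor, read 112 to 145 CPM (median 119) at 4 months and 101, 75.6, 78.9 and 62.8 CPM at 9 months (log2 fold change -0.64, SE 0.12, adjusted p = 0.000629), and the clock gene Per1 read 115 to 127 CPM (median 121) and then 112, 60.2, 60.7 and 71.1 CPM (log2 fold change -0.67, SE 0.16, adjusted p = 0.00482). For Per1 replicate 1 was near the 4-month range and the other 3 libraries far below it. Arc, which read 125 to 341 CPM (median 273) at 4 months and 243, 114, 59.4 and 102 CPM at 9 months, was at -0.99 (adjusted p = 0.182). The list had a median of -0.48, a WT median of 0.39, and 0 members whose age change was called different from WT. Members called lower numbered 12 without the WT 9-month replicate 5, and 12 when PS19 libraries were fitted alone. Summed over the list, WT libraries held 1875 to 2558 CPM at 4 months and 1405 to 6323 CPM (median 1815) at 9 months, a wide spread.

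Some genes of immature neurons fell, and a few genes of neuronal injury were called, in both directions. Dcx (chrX:143855842-143933311), a microtubule protein of newborn neurons, read 25.5 to 31.7 CPM (median 30.8) at 4 months and 23, 23.3, 23.9 and 24.5 CPM at 9 months (log2 fold change -0.32, SE 0.09, adjusted p = 0.0136). Every older library was below every younger one. Of 20 tested neurogenesis genes 7 fell, 4 without the 9-month replicate 3 and 3 without the 4-month replicates 1 and 5. Another 2 rose, beside 10.0% of all genes, and 0 without the 9-month replicate 5. The median of the list was -0.225 in PS19 and -0.134 in WT, where 6 of 20 changes were above 0. The median difference between the age changes was -0.101. Calb2, a marker of immature granule cells and of some interneurons, was the one called different from WT (-0.94, adjusted p = 0.0209, and 0.0534 without the 9-month replicate 3). Cdkn1a (chr17:29090976-29100727), the cell cycle inhibitor induced by p53, rose from a median of 9.43 CPM (5.71 to 10.9) to 25.5, 23.4, 26.3 and 12.2 CPM (log2 fold change 1.27, SE 0.29, adjusted p = 0.0041), and replicate 5 was its lowest library of 9 months. Over the injury list 5 of 21 members rose and 3 fell, beside 10.0% and 7.28% of all genes. Without the 9-month replicate 5, 3 members rose. The median of the list was 0.04. The growth-cone genes Gap43 (-0.46, adjusted p = 0.00393) and Stmn2 (-0.22, adjusted p = 0.0069) fell, while neurofilament genes Nefl (-0.07, adjusted p = 0.478) and Nefm (-0.20, adjusted p = 0.119) did not pass. Among tau kinases, phosphatases and clearance factors 5 of 28 fell and 1 rose, beside 7.28% and 10.0% of all genes. Lower calls numbered 3 without the 4-month replicates 1 or 6 or the 9-month replicates 1, 3 or 5. They numbered 2 without the 4-month replicates 1 and 5. The CDK5 activator Cdk5r1 fell from a median of 263 CPM (234 to 283) to 221, 209, 196 and 196 CPM (log2 fold change -0.35, SE 0.06, adjusted p = 0.000512) with no overlap, whereas Cdk5 itself was at -0.06 (adjusted p = 0.399). The chaperone partner Bag3 was the member called higher (0.46, adjusted p = 0.0459), and its adjusted p was 0.0525 to 0.144 when any 1 PS19 library other than the 4-month replicate 3 was left out.

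Some genes of vessels and most border macrophage markers rose, with fewer calls without the 9-month replicate 5. Endothelial and pericyte genes rose in 10 of 20 tested members (median 0.46), beside 10.0% of all genes, and in 4 without that library or 6 without replicate 3. The age change differed from WT in 2 members. The leukocyte adhesion molecules Icam1 (1.45, adjusted p = 0.000417) and Vcam1 (0.68, adjusted p = 0.0169, 0.0836 without the 9-month replicate 5 and 0.0915 without the 4-month replicates 1 and 5) were among the 10. The border macrophage calls numbered 3 without replicate 5, and 3 of the 7 tested markers differed in age change from WT. Their mannose receptor Mrc1 read 2.12 to 5.04 CPM (median 3.93) at 4 months and 7.83, 13, 8.43 and 11.8 CPM at 9 months (log2 fold change 1.46, SE 0.28, adjusted p = 0.00086), so the ages were separate for this gene.

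**Figure D5:**
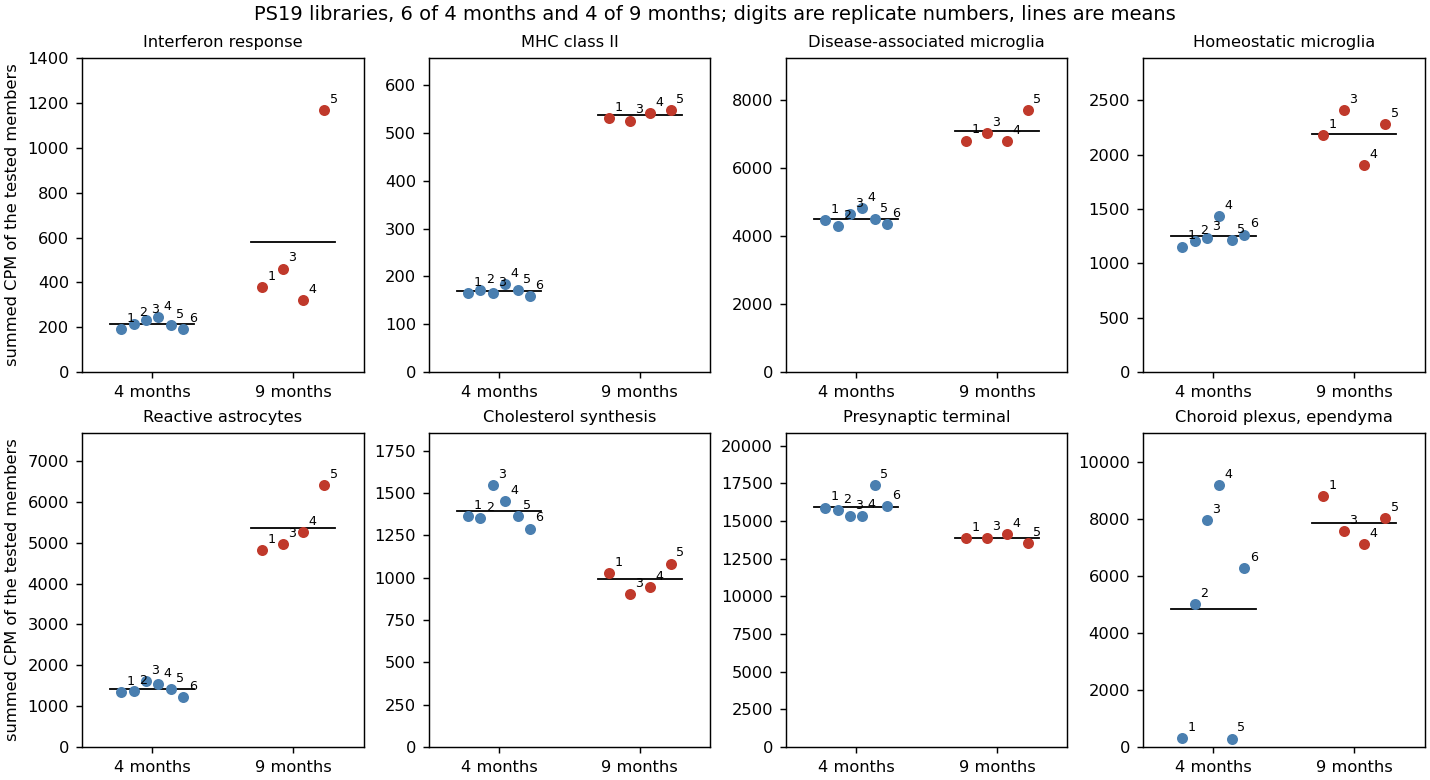
Each panel shows the CPM summed over the tested members of a gene list (y axis, from 0) in each PS19 library of 4 months (blue, 6 libraries) and 9 months (red, 4 libraries), with replicate numbers beside the points and lines at the means. The ages do not overlap in the interferon, microglial, astrocytic, cholesterol and presynaptic panels, the 9-month replicate 5 stands apart in the interferon panel, and the 4-month replicates 1 and 5 stand apart in the choroid plexus panel.

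The genes with the largest changes of all are described by a fixed rule: at least 5 CPM in the higher group, called, and without overlap. Among the 15 largest rises, most were members of the lists above. Those not yet named were Tgm1 (chr14:55700009-55713926), a transglutaminase, which read 0 to 0.429 CPM (median 0.192) at 4 months and 4.00, 4.19, 1.98 and 11.1 CPM at 9 months (log2 fold change 4.58, SE 0.46, adjusted p = 1.45e-07), Serpinf2, which encodes an inhibitor of plasmin, from a median of 0.517 CPM (0.357 to 1.01) to 7.91, 4.66, 6.97 and 6.68 CPM (log2 fold change 3.44, SE 0.28, adjusted p = 6.54e-09), and Siglecf, a sialic acid receptor of myeloid cells, from a median of 0.7 CPM (0.193 to 1.22) to 6.49, 7.61, 6.71 and 5.32 CPM (log2 fold change 3.24, SE 0.34, adjusted p = 3.26e-07). For Tgm1 the 9-month replicate 5 read highest and replicate 4 lowest, with a log2 fold change of 3.94 without replicate 5, and all 3 genes were nearly silent at 4 months. Lilrb4a (3.27), an inhibitory myeloid receptor with a near-identical copy, and Cd52 (3.24), a surface protein of leukocytes, completed the 15. Tgm1 overlaps another annotated gene, so that reads of both could be counted together.

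Falls by the same rule were all under 2-fold. Otof (chr5:30367062-30461932), the calcium sensor otoferlin, had the largest, from a median of 7.61 CPM (5.96 to 8.53) to 3.58, 3.65, 4.13 and 4.03 CPM (log2 fold change -0.94, SE 0.13, adjusted p = 2.15e-05), and its age change differed from WT by -0.73 (adjusted p = 0.0123). Foxo6, a forkhead factor of hippocampal neurons, fell from a median of 19.9 CPM (17.6 to 22) to 12.8, 10.6, 12.7 and 13.3 CPM (log2 fold change -0.69, SE 0.12, adjusted p = 0.000183), and the muscarinic receptor gene Chrm4 from a median of 15.6 CPM (14.1 to 18.5) to 10.7, 9.86, 6.28 and 12.5 CPM (log2 fold change -0.71, SE 0.14, adjusted p = 0.00128). The rule itself required the libraries of the 2 ages to be apart, and for Chrm4 they were closely so. Foxo6 and Chrm4 also had negative age changes in WT (-0.45 and -0.52), and their difference from WT did not pass the test (adjusted p = 0.434 and 0.656). Others of the 15 were Zdbf2, Tmem91, Tnc, Dchs2, Zmym1, Idi1, the axon guidance ligand gene Efna5, Dlx2, Cpne5, Plppr1 and the glucocorticoid-responsive gene Tsc22d3, with log2 fold changes from -0.84 to -0.69. The call for Dlx2 was lost without the 9-month replicates 3 (0.0689) or 4 (0.0619).

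Among the 10 genes with the smallest p for the difference from WT were Laptm5 (1.50, SE 0.10, adjusted p = 2.78e-09), C1qa (2.34), Gfap (2.25), Osmr (2.49), Ly86 (2.42), Lag3 (2.94), Tyrobp (2.34), the mannosidase Man2b1 (1.30) and Irf8 (1.99), all with the more positive change in PS19. These values are differences between the PS19 and the WT log2 fold changes. Gfap changed by 0.41 in WT (adjusted p = 0.176) and read 386 ± 19.7 CPM in WT at 4 months (SD, n = 6) and 514 ± 71.8 CPM at 9 months (SD, n = 5). Of the genes called higher in PS19, 688 were also called in this test, and of those called lower 139.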

How the data were processed

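Bulk hippocampal RNA-seq of 21 libraries was used: 6 and 4 PS19 libraries and 6 and 5 WT libraries of 4 and 9 months. The authors deposited raw read counts per gene for each library; cutadapt, STAR, featureCounts, DESeq2 and mm10 appear in the submitters' processing notes, and 1 table gives featureCounts 2.0.0 with paired, unstranded counting per the file headers. For the other 20 tables the settings are not given in the sources used here. Without strand, reads of overlapping genes cannot be told apart.

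Of 32285 genes in the files, 32158 were matched by identifier to GENCODE M21 names and GRCm38 coordinates. Genes with too few counts were removed by edgeR's filter, which left 16133. Libraries were scaled by TMM, and edgeR 4.0.16 (quasi-likelihood test, R 4.3.3) was fitted to all 21 libraries in 4 groups, which share the estimate of spread. Contrasts were 9 against 4 months in PS19, the same in WT, and their difference, with Benjamini-Hochberg adjustment over all genes tested and a threshold of 0.05. CPM values use TMM-scaled library sizes. The code was tested on simulated data.

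Levels were not compared between genes, since CPM is not per length. Genes were named from the lists and by 3 rules: the 15 largest rises and falls with at least 5 CPM and no overlap between the ages, and the 10 smallest p-values of the difference from WT. Some genes of the lists and rules are not reported here. The lists and their members were chosen with earlier results of these data known. Lists are described by counts and medians, with no test of their own. Alternatives covered scaling, filter, DESeq2 1.42.0, the samples in the fit, a choroid plexus covariate, the replicate number as a block, and leaving out each library. Leaving out the 4-month replicates 1 and 5 together was chosen after seeing the data. Promoters came from a RefSeq table of GRCm38.p6, which held 12193 of the tested genes.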

Additional observations from a re-analysis of the deposited data

Results flagged for a closer look

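The age change differed between PS19 and WT, by a test of the difference itself, in 872 genes. Among the 10 with the smallest p were differences on the log2 scale of 1.50 for Laptm5, 2.34 for C1qa, 2.25 for Gfap, 2.49 for Osmr, 2.42 for Ly86, 2.94 for Lag3, 2.34 for Tyrobp, 1.30 for Man2b1 and 1.99 for Irf8. Each was more positive in PS19.

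A single library lay far from the others of its group in 19 of 226 groups of 4 or 6 values examined, by Dixon's test. Chance alone gives about 1 in 20 groups. The PS19 9-month replicate 5 accounted for 8 of them, all on the high side. It had 1168 CPM summed over the interferon response genes, against 320.4 to 462 CPM in the other 3 libraries, and 314 CPM over the interferon receptors and sensors, against 289 to 292 CPM. Among single interferon-induced genes it read 21.7 CPM for Cxcl10, 76.5 for Oasl2 and 81.9 for Ifit3. The same library read 302 CPM for Vim, 112 for Laptm5 and 21.4 for Klk6.

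At 4 months the PS19 replicate 3 was high for 2 neuron lists, with 1204 CPM summed over CA3 and CA2 markers and 905 over dentate granule markers, and low for 3 glial lists. It had 10290 CPM over astrocyte homeostasis genes, 904 over oligodendrocyte precursor genes and 6193 over myelin genes, where the other 5 libraries had 7595 to 8353 CPM. Replicate 5 of that age, which nearly lacked choroid plexus RNA, was high for presynaptic genes (17360 CPM) and for chemokines and their receptors (809 CPM). Replicate 4 was high for oxidative phosphorylation (5182 CPM), B2m (77.2 CPM) and Klk6 (2.87 CPM), and replicate 6 for Lcn2 (1.86 CPM).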

How the results depend on the processing

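Counts of calls kept within 1.5 times their value in PS19 under every other scaling, filter and tool, with 2990 calls in DESeq2, 2661 with upper-quartile factors and 2480 without a filter on low counts. Leaving out 1 library at a time gave 1749 to 3014 calls in PS19, 1108 to 1693 higher and 641 to 1343 lower, with the lowest values without the 9-month replicate 5. It gave 0 to 20 calls in WT and 514 to 963 for the difference between the genotypes. Without the 4-month replicates 1 and 5, 1793 genes were called and 554 of them were lower; with a covariate for choroid plexus RNA, 2162 were called. DESeq2 called 78 genes in WT. The cause of these shifts was not tested.

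Deviations of same-numbered 4- and 9-month PS19 libraries correlated at -0.127, -0.127, -0.0931 and 0.0631. These values lay within the -0.24 to 0.165 of differently numbered libraries. Whether the replicate numbers pair the samples cannot be told from so few values. With the replicate number as a block (replicate block), 2688 genes were called in PS19, 13 in WT and 899 for the difference.

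Of 166 genes named as called, 149 were called in every alternative that gave a value, and no called gene changed direction. The choroid covariate ended the calls of Atp6v0a1, Bag3, Cadm1, Cyp46a1, Grp, Ids and Lox, and leaving out the 4-month replicates 1 and 5 ended the same 7 and those of Lcn2, Tfeb and Vcam1. The block ended those of Bag3, Cln3 and Ids, and no filter on low counts those of Bag3, Cyp46a1 and Ids. Upper-quartile factors ended those of Cyp46a1 and Ids, library totals that of Cyp46a1, and DESeq2 that of Lcn2. The genes that changed sign were not called in any setting. Prnp gave 0.009 with upper-quartile factors, 0.011 with library totals, 0.012 with the choroid covariate, 0.011 without the 4-month replicates 1 and 5, and -0.036 to 0.031 with 1 library left out. Lpl gave -0.006 with the choroid covariate and -0.014 to 0.168 with 1 library left out. Of 35 T and NK cell genes, 8 had enough counts to be tested at this depth.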

Other observations

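Some gene groups outside the comparisons above held single calls. Of 23 tested fibroblast and extracellular matrix genes 6 rose, beside 10.0% of all genes. Without the 9-month replicate 5, 3 rose, and 1108 of all 16327 genes tested in that fit. In the fit to all libraries the age change was called different from WT in 0 of the 23. Timp1, an inhibitor of matrix proteases, read 0.287 to 1.01 CPM (median 0.422) at 4 months and 2.08, 4.35, 2.15 and 5.77 CPM at 9 months (log2 fold change 2.73, SE 0.34, adjusted p = 3.92e-06 in edgeR's test), with all older libraries higher. The crosslinking enzyme gene Lox read 0.257 to 1.44 CPM (median 0.937) at 4 months and 2.83, 2.17, 2.32 and 2.58 CPM at 9 months (log2 fold change 1.43, SE 0.41, adjusted p = 0.0181), also without overlap. Its adjusted p was 0.0486 without the 9-month replicate 5, and the call was lost without the 4-month replicates 1 and 5 (0.0553) and with a covariate for choroid plexus RNA (0.0591).

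Among 21 tested neuropeptide genes, beside 7.28% of all genes called lower, Grp, which encodes gastrin-releasing peptide, was the one called lower, from a median of 16.9 CPM (12.8 to 19) to 7.49, 11.1, 9.81 and 14.3 CPM (log2 fold change -0.62, SE 0.18, adjusted p = 0.0194), with replicate 5 inside the 4-month range. The Grp call was lost without the 9-month replicates 1 (adjusted p = 0.0903) or 4 (0.0639) and without the 4-month replicates 1 and 5 (0.0935). Autophagy genes gave 2 rises and 2 falls among 22 tested, near the 10.0% and 7.28% of all tested genes called higher and lower. The rise of Gabarap, a membrane tether of autophagosomes, from a median of 102 CPM (93.8 to 108) to 122, 126, 115 and 128 CPM (log2 fold change 0.27, SE 0.05, adjusted p = 0.000272) was kept without the 9-month replicate 5 (adjusted p = 0.00255), and the age change differed from WT by 0.31 (0.00475). Of 15 genes of oligodendrocyte precursors 3 rose, beside 10.0% of all genes, and 1 without the 9-month replicate 5. The calcium channel gene Itpr2 had the smallest adjusted p (0.50, adjusted p = 8.69e-06). Its WT change was 0.32 (adjusted p = 0.0773), and the difference from WT did not pass (0.18, adjusted p = 0.312).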
